A study of Mus musculus with 40 samples.

Results

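Dbp, Tef, Hlf and Nfil3 encode the basic leucine zipper (bZIP) transcription factors at the output of the circadian clock. Their transcripts were followed in brain tissue, prefrontal by the title of the series, from mice given morphine and oral antibiotics. The genes were picked by symbol from the deposited count table, of whose 56980 rows they make up 4, at a time when earlier results of these data were known. Dbp (D-box binding protein), Tef (thyrotroph embryonic factor) and Hlf (hepatic leukemia factor) form the PAR bZIP family, named for a domain rich in proline and acidic residues, and activate genes through a DNA element called the D-box. Nfil3, also known as E4bp4, binds the same element and represses. In the clock itself, the activators Clock and Arntl (Bmal1) drive Dbp, the Period and Cryptochrome genes from E-box elements, the Period and Cryptochrome proteins shut that drive off again, and the nuclear receptors of the Ror and Rev-erb (Nr1d) families act in a second loop that includes Nfil3. Mice that lack Dbp, Tef and Hlf together develop epileptic seizures, which ties the family to brain function, and the enzyme gene Pdxk, which makes the active form of vitamin B6, is one of its described targets.

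Polyadenylated RNA of 40 libraries, 5 in each of 8 groups, came from wild-type female C57BL/6J mice, an inbred laboratory strain. Mice started as adolescents at postnatal day 25 or as adults at postnatal day 55. At each age 1 group had plain water and saline injections, 1 had oral antibiotics and saline, 1 had plain water and morphine at 15 mg/kg, and 1 had oral antibiotics and morphine, with the injections given under the skin for 5 days. Per its title, the series asks how brief antibiotic exposure acts on morphine reward and prefrontal gene expression at the 2 ages. The sources used here do not give the antibiotics, the hour at which tissue was taken or the time since the last injection. No label states that each library is a mouse of its own, and p-values therefore refer to the spread between these samples alone, which may be technical. By the labels the tissue is brain, and only the title of the series gives the prefrontal region. Every marker of the 11 cell type lists had reads in at least 1 library. Summed levels over the 40 libraries were 3340 to 4929 CPM (read counts scaled to library size) for 4 neuronal markers, 2064 to 2598 CPM for 6 markers of excitatory cortical neurons and 1.56 to 5.44 CPM for 4 markers of the choroid plexus. Of the choroid plexus markers Kl had a median of 2.53 CPM. Ttr, Folr1 and Clic6 had medians of 0.21, 0.041 and 0.108 CPM, under the floor given below. Between saline and morphine within an age and a drink, the summed levels of the libraries overlapped in all 44 pairs (11 lists in 4 comparisons). The 6 markers of striatal neurons had higher medians with morphine in all 4, most of all on antibiotics, where they went from 122 to 142 CPM in adolescents (ranges 117 to 146 and 137 to 153) and from 115 to 136 CPM in adults (114 to 127 and 117 to 145). The medians of the microglia, endothelium and mural cell lists were lower with morphine in all 4. The oligodendrocyte list moved both ways, from 941 to 1307 CPM in adults on water (915 to 1017 and 986 to 1466). In adolescents on water its median went from 1484 to 1325 CPM. Between water and antibiotics 1 of 44 pairs did not overlap, the same striatal list in adolescents given morphine, at 118 to 131 CPM on water against 137 to 153 CPM on antibiotics. The part of these shifts in the results was not tested. In bulk tissue, fewer cells of a type and less RNA per cell cannot be told apart. Library totals ranged from 8.64 to 12.1 M counts (M for mega), so that 3 counts stood for 0.248 to 0.347 CPM, a floor that covers counting error only.

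In the reference annotation of the mouse build GRCm38, Dbp (ENSMUSG00000059824.13) lies on the plus strand at chr7:45705088-45710203, Tef (ENSMUSG00000022389.16) on the plus strand at chr15:81802421-81826863, Hlf (ENSMUSG00000003949.17) on the minus strand at chr11:90336536-90390895 and Nfil3 (ENSMUSG00000056749.8) on the minus strand at chr13:52967209-52981073. All 4 are protein-coding genes, and their merged exons cover 2993, 7867, 6681 and 2026 bases. The identifier versions of the count table are newer than those of this annotation, so the exons counted by the authors may differ in detail.

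The start regions of the 4 genes are shown because Dbp, Tef and Hlf rose together in the comparisons that follow and clock factors act on such regions. All 4 genes were matched by symbol to the RefSeq windows, with 1 window each and 2 for Tef. Each window runs from 250 bases before to 50 bases after a start listed by RefSeq on GRCm38.p6, 5′ to 3′ on the strand of the gene. The windows are chr7:45704997-45705296 (plus) for Dbp, chr15:81802423-81802722 (plus) for the first of 2 Tef starts, chr11:90390868-90391167 (minus) for Hlf and chr13:52980990-52981289 (minus) for Nfil3. Capitals mark a match to one of the motifs searched.
Dbp: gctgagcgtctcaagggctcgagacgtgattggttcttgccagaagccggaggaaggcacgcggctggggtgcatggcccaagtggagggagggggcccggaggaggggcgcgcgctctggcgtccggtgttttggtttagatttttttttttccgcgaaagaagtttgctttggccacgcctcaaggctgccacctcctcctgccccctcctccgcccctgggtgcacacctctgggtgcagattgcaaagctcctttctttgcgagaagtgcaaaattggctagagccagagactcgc
Tef: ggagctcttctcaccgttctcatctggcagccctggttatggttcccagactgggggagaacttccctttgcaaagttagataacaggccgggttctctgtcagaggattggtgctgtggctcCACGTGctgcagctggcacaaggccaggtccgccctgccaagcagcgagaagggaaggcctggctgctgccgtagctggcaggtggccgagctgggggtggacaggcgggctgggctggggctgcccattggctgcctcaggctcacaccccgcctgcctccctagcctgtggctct
Hlf: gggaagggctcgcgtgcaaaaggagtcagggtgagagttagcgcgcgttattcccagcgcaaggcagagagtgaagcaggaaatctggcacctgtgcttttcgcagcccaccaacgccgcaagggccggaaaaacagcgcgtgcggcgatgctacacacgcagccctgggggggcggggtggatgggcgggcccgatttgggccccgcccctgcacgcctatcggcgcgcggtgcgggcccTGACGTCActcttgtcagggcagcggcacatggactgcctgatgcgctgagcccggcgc
Nfil3: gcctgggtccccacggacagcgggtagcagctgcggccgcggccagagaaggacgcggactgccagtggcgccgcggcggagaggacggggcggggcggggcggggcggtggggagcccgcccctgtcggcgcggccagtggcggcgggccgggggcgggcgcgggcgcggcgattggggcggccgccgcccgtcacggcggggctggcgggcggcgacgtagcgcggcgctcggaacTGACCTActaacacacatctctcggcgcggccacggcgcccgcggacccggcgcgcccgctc

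The motifs were searched on both strands and their matches did not overlap. They were the E-box CACGTG, its variant CACGTT, the D-box forms TTATGTAA and TTACGTAA, the cAMP response element TGACGTCA and the Ror and Rev-erb element forms TAGGTCA and TGGGTCA. The Tef window held an E-box that began 127 bases before the start, and the window of the other Tef start (chr15:81811164-81811463, plus) held another that began 138 bases before it. In the Hlf window the cAMP response element TGACGTCA began 9 bases before the start. In the Nfil3 window the Ror and Rev-erb element TAGGTCA stood on the opposite strand, read as TGACCTA, 12 bases before the start. No listed motif was found in the Dbp window, which says only that these letters are not in these 300 bases. Of all 32544 windows of this length, 7.17% held CACGTG, 4.71% CACGTT, 0.931% TTATGTAA, 0.12% TTACGTAA, 1.8% TGACGTCA, 2.61% TAGGTCA and 4% TGGGTCA. The share of G and C was 60.3% for Dbp, 64% for the first Tef window, 67.3% for Hlf and 81.7% for Nfil3, against a median of 53% over all windows.

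The activator genes were read at a far higher level than the repressor gene. Per kilobase of merged exon, mean levels over the 40 libraries were 49.3 CPM for Tef, 37.2 CPM for Dbp, 35.0 CPM for Hlf and 2.92 CPM for Nfil3. Nfil3 was read by only 27 to 86 counts in a library, so its values carry the most counting error of the 4. Ordered by mean level, the 4 morphine groups stood above the 4 saline groups for Dbp, Tef and Hlf, and below them for Nfil3. For Dbp the neighbouring groups in that order overlapped except at the step from the lowest morphine group, adolescents on antibiotics at 126 ± 10.9 CPM, to the highest saline group, adults on water at 94.5 ± 6.48 CPM (SD, n = 5 each). For Tef, too, the step from the lowest morphine group, adolescents on water at 424 ± 6.80 CPM, to the highest saline group, adults on water at 355 ± 14.0 CPM (SD, n = 5 each), was the single one without overlap. For Hlf and Nfil3 every group overlapped its neighbours in the order. Over both ages and drinks, the 20 saline libraries ran from 62.2 to 103.5 CPM for Dbp with a median of 88.9, and the 20 morphine libraries from 112 to 161 CPM with a median of 136. For Tef the saline libraries ran from 319 to 374 CPM with a median of 344, and the morphine libraries from 413 to 462 CPM with a median of 428. Every morphine library was thus above every saline library for both genes. How many of all genes tested separate in this way, here or in the single comparisons below, was not counted. For Hlf 17 of 20 morphine libraries were above all saline libraries, and for Nfil3 10 of 20 saline libraries were above all morphine libraries.

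**Figure D1:**
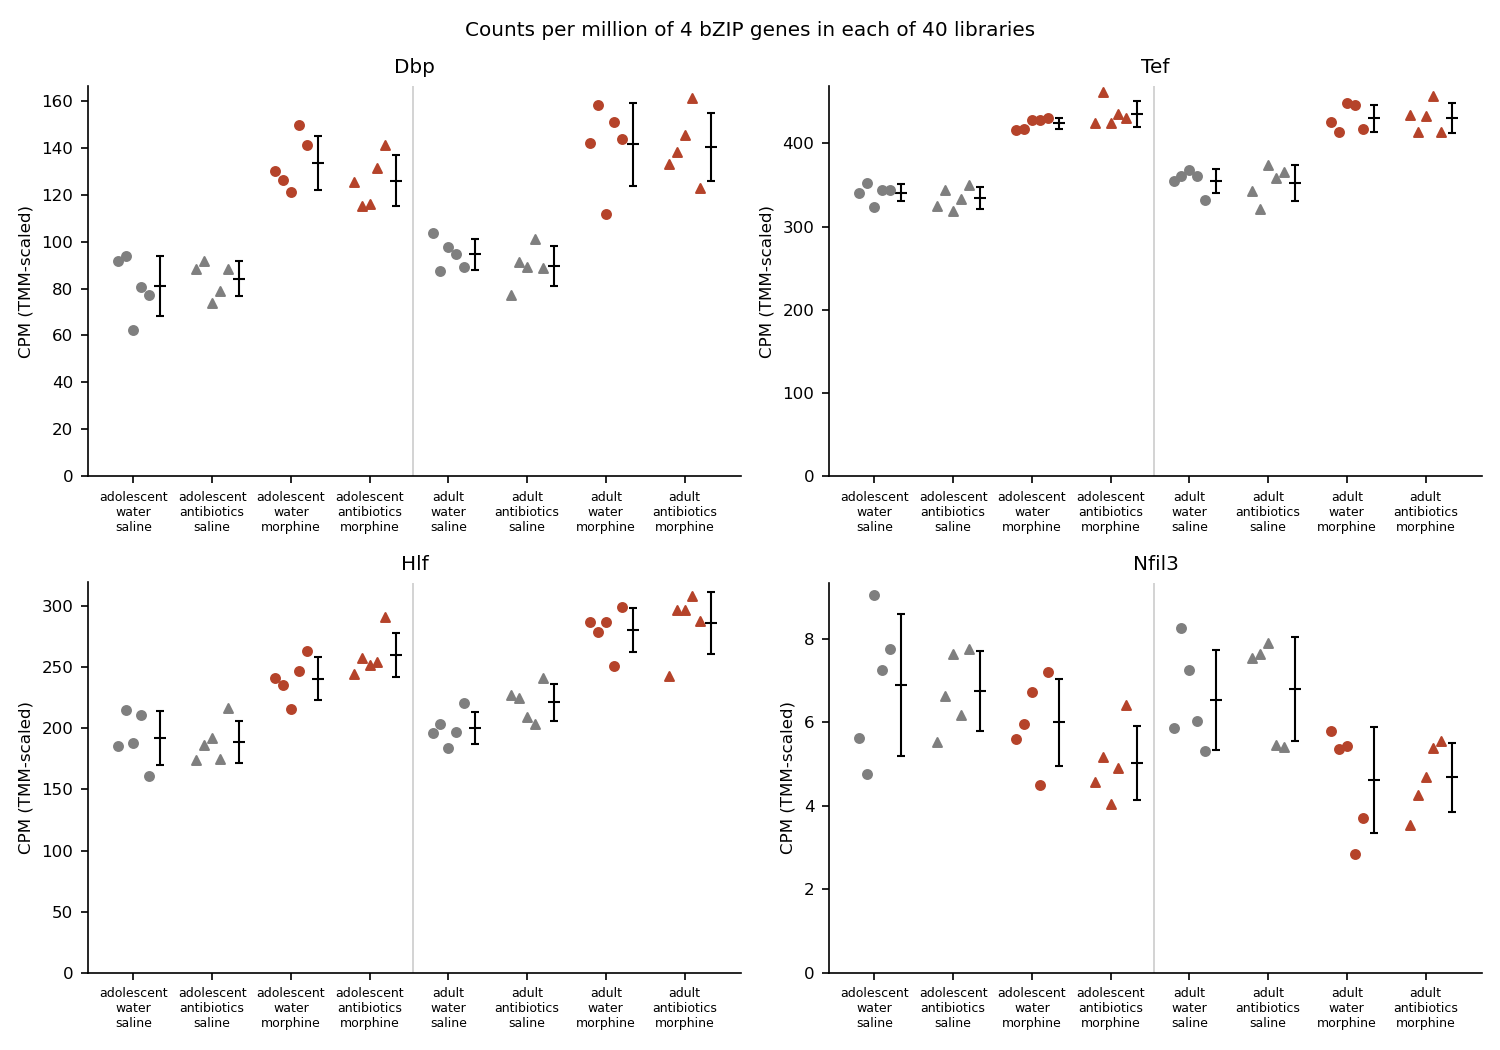
Level of Dbp, Tef, Hlf and Nfil3 (vertical axis, TMM-scaled CPM from 0) in each of the 40 libraries by group (horizontal axis); points are libraries and bars the mean ± SD of 5. Dbp and Tef show a step between the saline and the morphine groups without overlap (highest saline library 103.5 and 374 CPM, lowest morphine library 112 and 413 CPM), while the Nfil3 points of all groups overlap.

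Whether morphine moved the family was read in 4 comparisons of morphine with saline, at each age on water and on antibiotics, which share no library. Dbp, Tef and Hlf rose in all 4, and Nfil3 passed the test in none of them. On water in adolescents, 3 of the 4 genes were called (adjusted p under 0.05 in edgeR), against 0.319% of the 17880 genes tested. On antibiotics in adolescents 3 of 4 were called, against 2.92% of all genes, on water in adults 3 of 4 against 0.475%, and on antibiotics in adults 3 of 4 against 0.213%. The same genes were then tested for morphine averaged over the drinks within an age, from the same libraries. There 3 of 4 were called in adolescents, against 1.52% of all genes, and 4 of 4 in adults, 3 higher and Nfil3 lower, against 0.749%. In adults Dbp, Hlf and Tef had the 3 smallest p-values of all 17880 genes in that average, in this order, and in adolescents Tef had the smallest and Dbp came next.

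In each of these 4 comparisons Dbp had the largest fold change of the 4 genes. In adolescents on water the 5 saline libraries read 91.5, 93.8, 62.2, 80.8 and 77.2 CPM and the 5 morphine libraries 130.0, 126, 121, 149.6 and 141 CPM. The groups did not overlap, and Dbp was 1.65-fold higher with morphine, a log2 fold change of 0.72 ± 0.09 (SE; edgeR adjusted p = 1.07e-06). Saline replicate 3 lay under the other saline libraries. With any 1 of these 10 libraries left out, the log2 fold change was 0.63 to 0.78. On antibiotics the adolescent saline libraries read 88.2, 91.6, 73.9, 78.9 and 88.2 CPM and the morphine libraries 125, 115, 116, 132 and 141 CPM. Again all 5 morphine libraries were above all 5 saline libraries, and the log2 fold change was 0.58 ± 0.09 (SE; edgeR adjusted p = 8.5e-05). In adults on water Dbp was at 104, 87.5, 97.6, 94.8 and 89.3 CPM with saline and at 142, 158, 112, 151 and 144 CPM with morphine. Morphine replicate 3 lay well under the other morphine libraries of that group but above all the saline ones, and the log2 fold change was 0.58 ± 0.09 (SE; edgeR adjusted p = 0.000141). In adults on antibiotics the saline libraries read 77.2, 91.4, 89.1, 101 and 88.6 CPM and the morphine libraries 133, 138, 146, 161 and 123 CPM. These did not overlap either, with a log2 fold change of 0.65 ± 0.09 (SE; edgeR adjusted p = 6.92e-05), the smallest p of all genes tested in that comparison. Averaged over the drinks, Dbp was 1.57-fold higher with morphine in adolescents and 1.53-fold higher in adults (edgeR adjusted p = 2.01e-09 and 1.91e-08).

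At its 3′ end Dbp overlaps Sphk2, a sphingosine kinase gene on the opposite strand, over 539 exonic bases, or 18.01% of the merged exons of Dbp. The sources used here do not give the strand setting of counting, so the reads of the shared stretch cannot be assigned with certainty and the values of both genes are uncertain to that extent. Sphk2 was higher with morphine as well, at 75.5 ± 4.12 against 57.1 ± 3.93 CPM in adolescents on water and at 78.8 ± 5.00 against 59.1 ± 2.20 CPM in adults on water (SD, n = 5 each). Its log2 fold changes were 0.40 and 0.23 in adolescents on water and on antibiotics, and 0.42 and 0.30 in adults (edgeR adjusted p = 0.000198, 0.0386, 0.000141 and 0.0268). In CPM, the morphine mean exceeded the saline mean by 47.2 for Dbp and 14.2 for Sphk2 in adolescents, and by 48.8 and 16.5 in adults. How much of either change came through shared reads was not tested. Car11, the other neighbour of Dbp, does not overlap it and was not called, with log2 fold changes averaged over the drinks of -0.06 ± 0.05 in adolescents and 0.02 ± 0.05 in adults (SE; edgeR adjusted p = 0.661 and 0.921).

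**Figure D2:**
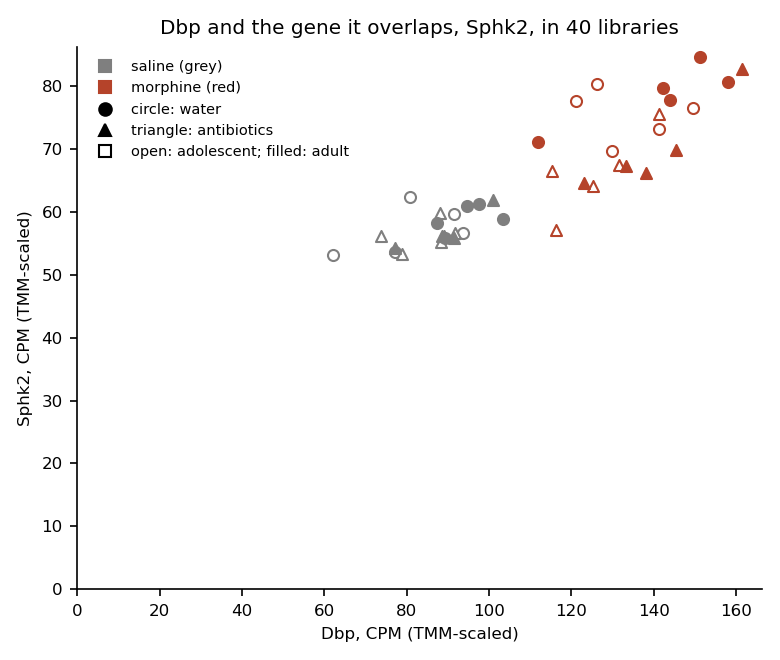
Sphk2 (vertical axis, TMM-scaled CPM from 0) against Dbp (horizontal axis, TMM-scaled CPM from 0), 1 point per library for the 40 libraries, by age and injection. The saline libraries lie at the lower left, at 62.2 to 103.5 CPM of Dbp and 53.2 to 62.3 CPM of Sphk2, and the morphine libraries to the right, at 112 to 161 and 57.1 to 84.7 CPM.

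Tef, the most abundant of the 4 per kilobase, rose by less than Dbp but with a tighter spread. In adolescents on water the saline libraries read 341, 352, 324, 344 and 344 CPM and the morphine libraries 416, 417, 428, 428 and 431 CPM, a log2 fold change of 0.32 ± 0.05 (SE; edgeR adjusted p = 4.5e-05). The gap between the highest saline and the lowest morphine library was wider than the whole range of either group. In adolescents on antibiotics Tef was at 325, 343, 319, 333 and 350.1 CPM with saline and 424, 462, 424, 435 and 431 CPM with morphine. Morphine replicate 2 was the highest, and the log2 fold change of 0.38 ± 0.05 (SE; edgeR adjusted p = 2.63e-06) had the smallest p of all genes tested there. Adult libraries on water read 354, 360.2, 368, 360.5 and 331 CPM with saline and 425, 413, 448, 446 and 417 CPM with morphine, a log2 fold change of 0.28 ± 0.05 (SE; edgeR adjusted p = 0.000602). Adult libraries on antibiotics read 343, 321, 374, 358 and 366 CPM with saline and 435, 414, 433, 457 and 414 CPM with morphine, a log2 fold change of 0.29 ± 0.05 (SE; edgeR adjusted p = 0.000768). In both adult comparisons, too, all 5 morphine libraries were above all 5 saline libraries. Averaged over the drinks, Tef was 1.27-fold higher with morphine in adolescents and 1.22-fold higher in adults (edgeR adjusted p = 6.44e-10 and 2.04e-07). Tef overlaps the antisense gene Gm17597 over 193 bases, or 2.45% of its merged exons, and that gene had 2 to 24 counts in a library.

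Hlf rose with morphine in all 4 comparisons, with more spread between libraries than Tef. In adolescents on water the saline libraries read 186, 215, 188, 211 and 161 CPM and the morphine libraries 241, 236, 216, 247 and 264 CPM. The lowest morphine library, replicate 3, was barely above the highest saline library, replicate 2, and the log2 fold change was 0.33 ± 0.07 (SE; edgeR adjusted p = 0.0137). This call was lost without water-saline replicate 5 (edgeR adjusted p = 0.126) and without water-morphine replicates 4 and 5 (edgeR adjusted p = 0.0564 and 0.0952), and also when only the 2 groups compared were fitted (edgeR adjusted p = 0.13). In adolescents on antibiotics Hlf was at 174, 186, 192, 175 and 216 CPM with saline and 245, 258, 252, 254 and 291 CPM with morphine. The highest saline and the highest morphine library, replicate 5 in both groups, stood apart upwards, and the log2 fold change was 0.46 ± 0.07 (SE; edgeR adjusted p = 4.01e-05). In adults on water the saline libraries read 196, 204, 184, 197 and 221 CPM and the morphine libraries 287, 279, 287, 251 and 299 CPM, a log2 fold change of 0.49 ± 0.07 (SE; edgeR adjusted p = 3.89e-05). In adults on antibiotics they read 228, 225, 209.6, 203 and 242 CPM and 243, 297, 297, 308 and 288 CPM. Here morphine replicate 1 was the lowest of its group and just above the highest saline library, and the log2 fold change was 0.37 ± 0.07 (SE; edgeR adjusted p = 0.00365). Averaged over the drinks, Hlf was 1.31-fold higher with morphine in adolescents and 1.35-fold higher in adults (edgeR adjusted p = 2.65e-07 and 9e-08).

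Nfil3, the repressor, had lower means with morphine in all 4 comparisons, but passed the test only in the adult average. In adolescents on water the saline libraries read 5.62, 4.77, 9.04, 7.25 and 7.74 CPM and the morphine libraries 5.59, 5.97, 6.72, 4.48 and 7.20 CPM, with a log2 fold change of -0.21 ± 0.17 (SE; edgeR adjusted p = 0.616). On antibiotics they read 5.53, 6.63, 7.64, 6.16 and 7.76 CPM and 4.57, 5.16, 4.05, 4.89 and 6.41 CPM, with a log2 fold change of -0.42 ± 0.18 (SE; edgeR adjusted p = 0.207). The groups overlapped in both. In adults on water Nfil3 was at 5.85, 8.26, 7.25, 6.02 and 5.31 CPM with saline and 5.78, 5.35, 5.42, 2.84 and 3.72 CPM with morphine, and morphine replicate 4 was the lowest of all 40 libraries. The log2 fold change was -0.50 ± 0.18 (SE; edgeR adjusted p = 0.24), and the groups overlapped. In adults on antibiotics the saline libraries read 7.55, 7.64, 7.90, 5.45 and 5.41 CPM and the morphine libraries 3.54, 4.26, 4.70, 5.38 and 5.55 CPM, with a log2 fold change of -0.53 ± 0.18 (SE; edgeR adjusted p = 0.398) and again an overlap. Averaged over the drinks, Nfil3 fell by 0.52 ± 0.13 (SE) on the log2 scale in adults, or 1.43-fold, from 6.66 ± 1.16 to 4.65 ± 1.01 CPM, with n = 10 and the SD for each (edgeR adjusted p = 0.0328). In adolescents the average was -0.32 ± 0.12 (SE; edgeR adjusted p = 0.234), and the averages of the 2 ages differed by -0.20, with a 95% interval of -0.56 to 0.16. The adult call was lost without any 1 of 8 of the 20 adult libraries, namely water-saline replicates 2 and 3 (edgeR adjusted p = 0.0747 and 0.0647), antibiotics-saline replicates 1, 2 and 3 (0.0521, 0.0507 and 0.0623), water-morphine replicates 4 and 5 (0.053 and 0.0727) and antibiotics-morphine replicate 2 (0.0571).

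No change with antibiotics passed the test for any of the 4 genes, with either injection and at either age. These comparisons share libraries with those of morphine, and with each other through the interactions. Under saline in adolescents 0 of 4 were called by edgeR, against 0.0391% of all genes tested, and 0 of 4 under morphine, against 7.56%. In adults 0 of 4 were called under saline, against 0.0503%, and 0 of 4 under morphine, against 0.028%. With shares this low, 0 of 4 does not set these genes apart from the rest. For the interaction of antibiotics and morphine edgeR called 0 of 4 in adolescents, against 1.24% of all genes, and 0 of 4 in adults, against 0%, where 1214 of all genes had an unadjusted p under 0.05. DESeq2 and limma-voom called 0 of 4 in each of these 6 comparisons as well, and in edgeR 1 unadjusted p was under 0.05, that of Hlf in adults under saline. Hlf was there at 221 ± 15.3 CPM with antibiotics and 200.3 ± 13.3 CPM with water (SD, n = 5 each), a log2 fold change of 0.15 ± 0.07 (SE; edgeR adjusted p = 0.481).

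The intervals show how large an antibiotic effect the data could still hold. For Tef the 95% intervals of the log2 fold change with antibiotics were -0.13 to 0.07 under saline and -0.06 to 0.13 under morphine in adolescents, and -0.11 to 0.09 and -0.09 to 0.10 in adults. For Dbp they were -0.13 to 0.24 and -0.26 to 0.09 in adolescents, and -0.26 to 0.10 and -0.19 to 0.16 in adults. These upper bounds for Tef and Dbp lie under the morphine changes of the same genes, a comparison that was not tested. For Hlf the intervals were -0.17 to 0.12 and -0.03 to 0.25 in adolescents, and 0.0045 to 0.29 and -0.11 to 0.17 in adults. The Hlf interval under saline in adults left out 0, without adjustment over genes. Its upper bound of 0.29 came near the smallest morphine change of Hlf, 0.33 in adolescents on water. Nfil3, read by few counts, had wider intervals, -0.38 to 0.31 and -0.62 to 0.11 in adolescents and -0.30 to 0.40 and -0.36 to 0.40 in adults. The difference that antibiotics made to the morphine change had an interval in adolescents of -0.39 to 0.11 for Dbp, -0.07 to 0.20 for Tef, -0.06 to 0.34 for Hlf and -0.72 to 0.28 for Nfil3. In adults the intervals were -0.18 to 0.32, -0.12 to 0.15, -0.31 to 0.08 and -0.55 to 0.49 in the same order.

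**Figure D3:**
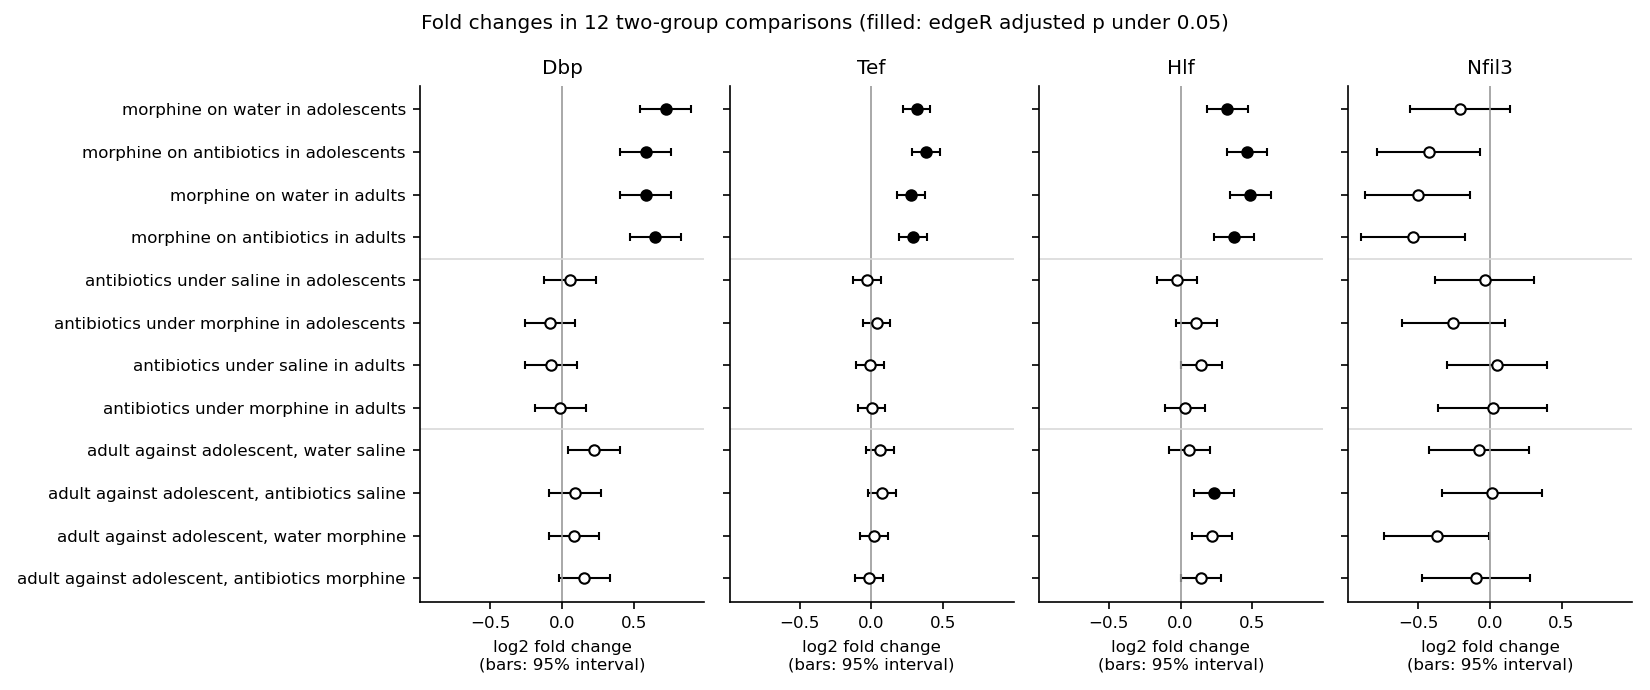
Log2 fold change (horizontal axis; bars are 95% intervals) of Dbp, Tef, Hlf and Nfil3 in the 12 comparisons of 2 groups (vertical axis); filled points passed an edgeR adjusted p under 0.05. The 4 morphine comparisons are filled for Dbp, Tef and Hlf, at 0.28 to 0.72, the 4 antibiotics comparisons are open for every gene, and 1 age comparison is filled, Hlf on antibiotics and saline at 0.23.

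Age was compared within each treatment, from libraries that the other comparisons also use. With antibiotics and saline, 1 of the 4 genes was called, against 5.97% of all genes tested: Hlf was higher in adults, at 221 ± 15.3 against 189 ± 17.3 CPM (SD, n = 5 each), with a log2 fold change of 0.23 ± 0.07 (SE; edgeR adjusted p = 0.0366). The ranges of the 2 ages overlapped, from 203 to 242 CPM in adults and from 174 to 216 CPM in adolescents. The call was lost without any 1 of 7 of these 10 libraries, adolescent replicates 1, 2, 3 and 4 (edgeR adjusted p = 0.125, 0.0789, 0.0582 and 0.111) and adult replicates 1, 2 and 5 (0.0755, 0.0731 and 0.135). In the other treatments edgeR called 0 of 4: on water and saline against 0.257% of all genes, on water and morphine against 0.928%, and on antibiotics and morphine against 1.04%. DESeq2 called 0 of 4 in these 3 comparisons and limma-voom 1, Hlf on water and morphine. At an unadjusted p under 0.05 edgeR counted 1 on water and saline (Dbp, 0.22 ± 0.09, SE), 2 on water and morphine (Hlf, 0.22 ± 0.07, and Nfil3, -0.37 ± 0.18) and 1 on antibiotics and morphine (Hlf, 0.14 ± 0.07).

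The morphine change itself was not found to differ between the ages. For the difference of adult and adolescent morphine effects, edgeR called 0 of 4 genes on water, 0 of 4 on antibiotics and 0 of 4 averaged over the drinks, against 0% of all genes in each, where 1788, 1151 and 850 of all genes had an unadjusted p under 0.05. None of the 4 genes had an unadjusted p under 0.05 there, and DESeq2 and limma-voom called 0 of 4 too. Averaged over the drinks the adult effect minus the adolescent effect was -0.04 for Dbp (95% interval -0.21 to 0.14), -0.07 for Tef (-0.16 to 0.03) and 0.03 for Hlf (-0.11 to 0.17) on the log2 scale. A p that misses the threshold does not show that the effects were equal.

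The rest of the clock was examined through lists of its genes. Of 8 clock repressors, the genes of the Period, Cryptochrome, Ciart and Bhlhe40 families, edgeR called 4 higher and 0 lower with morphine in adolescents on water, 7 and 0 on antibiotics, 5 and 0 in adults on water and 5 and 0 on antibiotics. Of all genes tested, 0.185%, 1.58%, 0.263% and 0.101% were called higher in these 4 comparisons, and 0.134%, 1.34%, 0.213% and 0.112% lower. The median log2 fold changes of the list were 0.44, 0.51, 0.46 and 0.42, against medians over all genes of 0.00, 0.00, 0.01 and 0.00. Per2, which inhibits the Clock and Arntl dimer, had log2 fold changes of 0.98 ± 0.15 and 0.97 ± 0.15 in adolescents on water and on antibiotics, and 0.68 ± 0.15 and 0.71 ± 0.15 in adults (SE; edgeR adjusted p = 0.000403, 0.000302, 0.0228 and 0.0333). Cry1, its partner in that inhibition, rose by 0.49, 0.75, 0.52 and 0.64 in the same order (edgeR adjusted p = 0.0351, 4.01e-05, 0.0151 and 0.00125). Of 4 activators, 1 was called lower in each comparison except in adults on water, where edgeR, DESeq2 and limma-voom called 0 and edgeR gave 2 unadjusted p-values under 0.05. The called gene was Arntl, at -0.32, -0.45, -0.20 and -0.42 (edgeR adjusted p = 0.0216, 0.000112, 0.248 and 0.00125). Of 5 nuclear receptors, edgeR called 1 higher in adolescents on each drink (Nr1d2), 2 in adults on water (Nr1d2 and Rora) and 0 in adults on antibiotics, where 2 had an unadjusted p under 0.05, DESeq2 called 1 and limma-voom 0. Nr1d2, a repressor that acts on Ror elements, had log2 fold changes of 0.36, 0.38, 0.40 and 0.25 (edgeR adjusted p = 0.0017, 0.000353, 0.000232 and 0.111). Its close relative Nr1d1 was not called, at 0.04 in the adolescent and -0.12 in the adult average (edgeR adjusted p = 0.763 and 0.179).

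**Figure D4:**
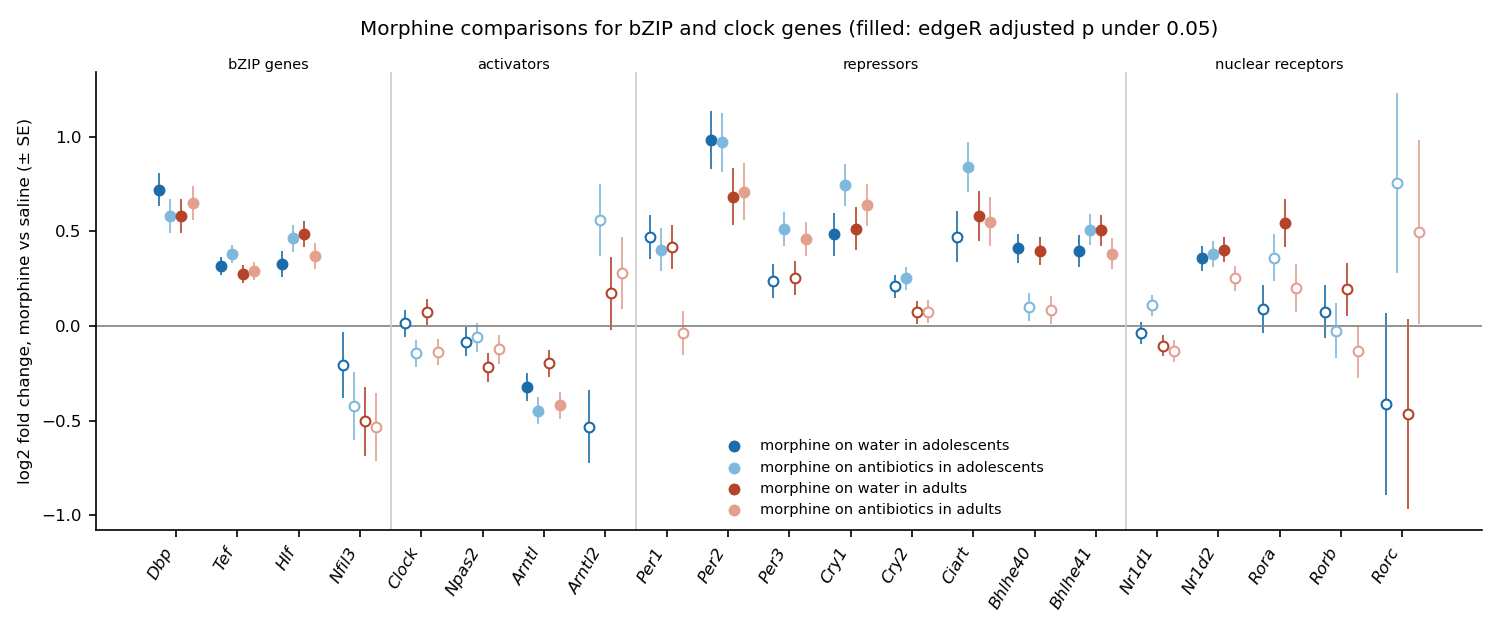
Log2 fold change ± SE (vertical axis) of the 4 bZIP genes and of the clock activators, repressors and nuclear receptors (horizontal axis) in the 4 comparisons of morphine with saline; filled points passed an edgeR adjusted p under 0.05. Dbp, Tef and Hlf are filled above 0 in all 4, as are Per2 (0.68 to 0.98) and Cry1 (0.49 to 0.75), while Arntl lies under 0 (-0.45 to -0.20) and Nfil3 lies under 0 with open points (-0.53 to -0.21).

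Of 7 listed targets of the PAR bZIP factors, most of them described in liver and kidney, 5 were tested (Pdxk, Por, Alas1, Usp2 and Nr1i3), and the others did not pass the filter on low counts. In adolescents edgeR called 0 of 5 on water and 1 of 5 on antibiotics, and in adults 0 of 5 on either drink, against 0.319%, 2.92%, 0.475% and 0.213% of all genes tested in these 4 comparisons, where unadjusted p-values under 0.05 numbered 0, 2, 1 and 1. DESeq2 and limma-voom also gave 0, 1, 0 and 0. The called gene was Usp2, a deubiquitinating enzyme, which rose by 0.22 ± 0.06 (SE) on the log2 scale (edgeR adjusted p = 0.0378). In the averages over the drinks Usp2 was at 0.13 in adolescents and 0.18 in adults (edgeR adjusted p = 0.15 and 0.0374). Pdxk was not called, at 0.02 ± 0.04 in the adolescent and 0.07 ± 0.04 in the adult average (SE; edgeR adjusted p = 0.857 and 0.541). Of 7 factors of the related C/EBP family, 6 were tested, and edgeR, DESeq2 and limma-voom called 0 of 6 in each of the 4 morphine comparisons, where edgeR gave 0, 1, 1 and 0 unadjusted p-values under 0.05. Of 5 kinases and ubiquitin ligases that act on the clock proteins, 1 was called, Csnk1e in adolescents on antibiotics, by all 3 tools, and 0 in the other 3 comparisons by any of them, where edgeR gave 1, 0 and 1 unadjusted p-values under 0.05.

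No pair of the 4 genes passed a test of correlation within groups. After the group mean was taken from each library, the log2 levels of Dbp and Tef had r = 0.25 over the 40 libraries (rho = 0.279; permutation p = 0.141 and 0.106; adjusted over 6 pairs 0.424 and 0.438). Dbp and Hlf had r = 0.17 (rho = 0.144; permutation p = 0.408 and 0.428; adjusted 0.612 and 0.642), and Tef and Hlf r = -0.03 (rho = -0.0341; permutation p = 0.854 and 0.847; adjusted 0.854 and 0.847). Nfil3 and Dbp had the largest size of the 6, r = -0.36 (rho = -0.248; permutation p = 0.0624 and 0.169; adjusted 0.375 and 0.438). Nfil3 had r = -0.06 with Tef and r = 0.18 with Hlf (rho = -0.052 and 0.216; permutation p = 0.730 and 0.321, and 0.773 and 0.219 for rho; adjusted 0.854 and 0.612, and 0.847 and 0.438 for rho). Without the 2 libraries farthest from the median of Dbp, r was 0.30 for Dbp with Tef, 0.22 with Hlf and -0.21 with Nfil3. Without those farthest from the median of Tef or Hlf, it was 0.09 for Tef with Hlf, -0.08 for Tef with Nfil3 and 0.18 for Hlf with Nfil3. In adolescents alone (20 libraries) Dbp had r = 0.45 with Tef, 0.42 with Hlf and -0.47 with Nfil3, and in adults alone 0.12, -0.16 and -0.27, none of which passed the adjusted test.

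**Figure D5:**
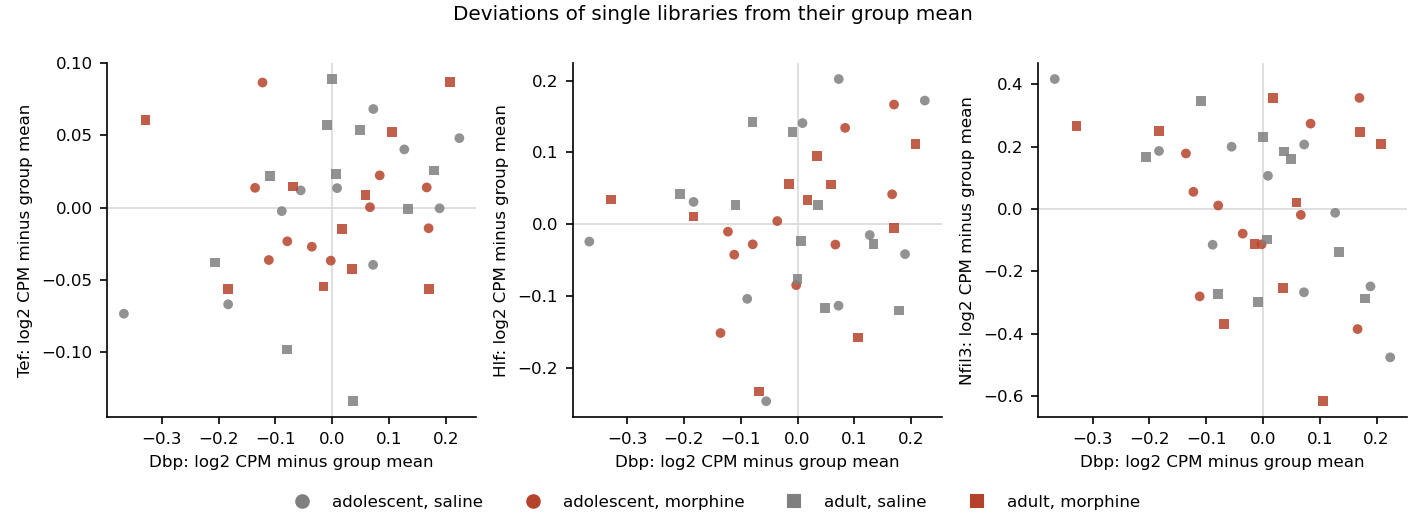
Deviation of each of the 40 libraries from its group mean in log2 CPM, for Dbp (horizontal axes) against Tef, Hlf and Nfil3 (vertical axes), by age and injection. The points scatter without a clear line in all 3 panels, with r = 0.25, 0.17 and -0.36.

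Across the 40 libraries, in which the groups share the step between saline and morphine, the genes most like each of the 4 by Pearson's r of log2 CPM were named as a description. For Dbp these were Tef (r = 0.89), Sphk2 (0.89), Per2 (0.86), Hlf (0.81) and Mthfd1l (0.81), and the most opposite were Arntl (-0.84), Dusp1 (-0.84) and Cdkn1a (-0.82). Tef was nearest to Dbp (0.89), Cry1 (0.86), Per2 (0.82), Sphk2 (0.82) and Mthfd1l (0.81), and most opposite to Arntl (-0.86), Dusp1 (-0.83) and Trib1 (-0.82). So Dbp and Tef were each other's nearest gene among 16351 compared, and both stood opposite to Arntl. Hlf had another set of neighbours, Nr1d2 (0.93), Ankrd33b (0.88), Sec14l1 (0.87), Mbnl2 (0.86) and Kcnq5 (0.84), and opposite to it were Cdkn1a (-0.88), Zfp580 (-0.86) and Fjx1 (-0.85). Nfil3 had weaker likeness to any gene. Its nearest were Nptx2 (0.63), Arntl (0.62), Egr2 (0.59), Gadd45b (0.59) and Scg2 (0.59), of which several respond to neuronal activity, and the most opposite was Dbp (-0.66), with Tub (-0.61) also among the 3 most opposite.

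With the group means removed, the likeness of Dbp to Tef went from r = 0.89 to 0.25, to Per2 from 0.86 to 0.28 and to the overlapping gene Sphk2 from 0.89 to 0.62. For Hlf it went from 0.93 to 0.73 with Nr1d2, from 0.88 to 0.58 with Ankrd33b, from 0.87 to 0.70 with Sec14l1, from 0.86 to 0.72 with Mbnl2 and from 0.84 to 0.81 with Kcnq5. None of the 5 nearest genes of any of the 4 was also among its 5 nearest within groups. These values share library, depth and normalization, and they carry no test.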

How the data were processed

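Polyadenylated RNA was sequenced in 40 libraries, 5 per group, with groups taken from the sample labels. Raw counts of reads per gene, without normalization, were deposited as 1 table. STAR 2.7.10a, DESeq2 and the build mm10 are named, without roles, per the submitters' processing notes. The sources used here do not give the annotation or the strand setting. Identifiers were matched without version to GENCODE symbols (91.4% matched), and 0 rows named no gene. Counts of replicate libraries differed beyond sampling noise in all 80 pairs within groups (chi-square per degree of freedom 2.2 to 16.15), so none was treated as a duplicate.

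Counts were analysed in R 4.3.3 with edgeR 4.0.16: filterByExpr (minimum count 10, minimum total 15) left 17880 genes, TMM scaled the libraries (factors 0.923 to 1.04), and a robust quasi-likelihood model with a mean for every group was fitted to the 40 libraries together (biological coefficient of variation 9.14%). The 19 comparisons were contrasts with two-sided F tests. Their p-values were adjusted over the 17880 genes (Benjamini and Hochberg), and a gene was called at an adjusted p under 0.05. The step was tested on simulated data. The SE is the size of the log2 fold change divided by the square root of F. Levels of single genes in the comparisons are TMM-scaled CPM. Those of the cell type markers and the floor are CPM of the library total, without TMM. Correlations used log2 CPM with a prior count of 2 and permutation tests with 100000 resamples (Python 3.11.15, scipy 1.17.1).

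The 4 genes and the clock lists were chosen with earlier results of these data known. The 4 genes are named in every comparison, listed genes may be named whatever their p, and the 5 nearest and 3 most opposite genes come from those with a mean of at least 1 CPM, of which 1 gene is not reported here. The alternatives tried were RLE size factors, no filter, at least 1 CPM in 5 libraries, DESeq2 1.42.0 (given all rows), limma-voom (limma 3.58.1), a fit of the compared groups alone, a replicate block within age, surrogate variables (sva 3.50.0, 3 used of 6 estimated) and leaving out each library. Whether replicate numbers pair libraries was checked by the correlation of their deviations from group means. Promoter windows come from RefSeq.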

Additional observations from a re-analysis of the deposited data

Results flagged for a closer look

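In adolescents on antibiotics and morphine, Hlf was read at 291 CPM in replicate 5, apart from the other 4 libraries of the group, which lay between 245 and 258 CPM. Its gap to the next library took up more than 0.71 of the range of the group, the limit of Dixon's test for 5 values. Of 32 sets of 5 libraries tested (4 genes in 8 groups) this was the 1 beyond the limit, and chance alone puts about 1 in 20 groups there. Without that library the log2 fold change of Hlf for morphine on antibiotics in adolescents was 0.42 (edgeR adjusted p = 0.000143), against 0.46 with it.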

How the results depend on the processing

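No fold change of Dbp, Tef, Hlf or Nfil3 turned its direction from a called value under any alternative run. The morphine calls of Dbp and Tef held in all 4 comparisons under all 8 alternative settings and without any 1 library, and so did those of Hlf except on water in adolescents, where 1 setting and 3 left-out libraries ended the call. Nfil3 in the adult average kept its call in 8 of 8 settings and without 12 of 20 libraries, with a log2 fold change of -0.57 to -0.46 and an edgeR adjusted p of 0.0167 to 0.0747 when 1 was left out. Between the ages on antibiotics and saline, the number of the 4 genes called was 1, and 0 to 1 when 1 library was left out. On water and morphine it went from 0 to 1 with surrogate variables and with limma-voom (Hlf), and on antibiotics and morphine from 0 to 1 with surrogate variables (Hlf). The cause was not tested. A replicate block within age changed no call. Libraries with the same number had a median correlation of 0.006, against -0.004 for libraries with other numbers. Of 60 pairs with the same number, 6 had a correlation over 0.1, and 13 of 40 libraries correlated best with their own number. Whether these counts exceed chance was not tested, so a pairing by number is not excluded. With the block, the morphine averages were 0.65 for Dbp, 0.35 for Tef, 0.39 for Hlf and -0.31 for Nfil3 in adolescents, and 0.61, 0.28, 0.43 and -0.51 in adults. Depth limits Nfil3, with 27 to 86 counts in a library.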

Other observations

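The nuclear receptor gene Rora encodes an activator that acts on Ror elements, and whether it acts on Nfil3 here was not tested. In adolescents the log2 fold changes of Rora with morphine were 0.09 ± 0.13 on water and 0.36 ± 0.13 on antibiotics (SE). In adults they were 0.54 ± 0.13 and 0.20 ± 0.12 in the same order (SE), and Rora was called on water (edgeR adjusted p = 0.0354). Of the repressors that compete with Clock and Arntl for E-boxes, Bhlhe41 rose in all 4 comparisons, by 0.40 ± 0.08, 0.51 ± 0.08, 0.51 ± 0.08 and 0.38 ± 0.08 (SE; edgeR adjusted p = 0.0133, 0.000112, 0.000218 and 0.0224). Its relative Bhlhe40 was called on water at both ages, at 0.41 ± 0.07 and 0.40 ± 0.07, and not on antibiotics, at 0.10 ± 0.07 and 0.08 ± 0.07 (SE; edgeR adjusted p = 0.00126, 0.00215, 0.54 and 0.899). The difference between the drinks was -0.31 ± 0.11 in adolescents and -0.31 ± 0.10 in adults (SE; edgeR adjusted p = 0.112 and 0.529).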
